A study of Mus musculus with 40 samples.

Results

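Both loss of Zmiz1 and blockade of Notch1 left DN3 thymocytes with higher transcript levels of a small set of genes, and 10 of these genes are described here: Ms4a4b, Clec12a, Ifngr1, Rasgrp1, Map3k8, Peli1, Stk17b, Sgk3, St8sia1 and Arap2. They were picked from measured values, because their DN3 levels were higher after pI-pC deletion of Zmiz1 and after the Notch1 antibody, and they are 10 of the 23284 genes in the count table that holds those libraries. Those 2 DN3 contrasts therefore describe the genes and test nothing about them. The rule did not use the ETP libraries or the tamoxifen mice, and the tests rest on those.

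RNA was sequenced from sorted early T-cell progenitors (ETP) and from the later double-negative 3 (DN3) thymocytes of C57BL/6 mice, with 3 or 4 libraries per group. DeltaMxCre mice carry MxCre and Zmiz1f/f, and their controls carry MxCre alone. Both received 40 mcg pI-pC every 2 days for 5 injections, 3 mice per group, and were sorted 8 weeks later. DeltaTamCre mice carry Rosa26CreERT2 and Zmiz1f/f, and their TamCre controls carry Rosa26CreERT2 alone. Both received tamoxifen at 0.2 mg/g, 4 mice per group, with sorting 43 to 44 h later. A further pair of groups received 10 mg/kg of the anti-NRR antibody (AntiNRR), which binds the negative regulatory region of Notch1, or isotype IgG, with sorting after 24 h, and has 3 libraries per group and stage. Mx-driven Cre is switched on by interferon in many cell types, and Rosa26 is active in nearly all cells, so neither deletion is limited to thymocytes. Ages are not given, nor is the number of mice behind the antibody libraries, so p-values there measure only the spread between those libraries. In bulk RNA, fewer cells of a type and less RNA per cell cannot be told apart.

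Notch1 signalling commits progenitors to the T lineage and carries them through the ETP to DN3 stages, where productive rearrangement of the T-cell receptor beta chain then lets cells move on. Zmiz1 is a PIAS-like coactivator that binds Notch1 and assists part of its transcriptional output. The antibody holds the negative regulatory region closed, so that the receptor cannot be cleaved and its intracellular part does not reach the nucleus. In GENCODE M21 (GRCm38), the genes lie on several chromosomes. Sgk3 (chr1:9798107-9900845) and Stk17b (chr1:53755506-53785224) share chromosome 1, and Clec12a (chr6:129342691-129365303) and St8sia1 (chr6:142821545-142964452) share chromosome 6, in each case far apart. Rasgrp1 spans chr2:117279993-117343001, Arap2 chr5:62602445-62766159, Ifngr1 chr10:19591949-19610229, Peli1 chr11:21091291-21150323 and Ms4a4b chr19:11443553-11467055. The 10 genes are best known from mature T cells and innate immune cells: 3 encode surface proteins, 5 encode signalling enzymes or exchange factors, and 2 encode a ganglioside enzyme and a regulator of small GTPases.

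Promoter sequence is shown for the members in which a binding motif of a factor relevant to Notch or early T cells was found, since the genes were higher together after both treatments. RefSeq windows (GRCm38.p6, 250 bases before to 50 after the start site) were matched for 8 of the 10 genes, and Sgk3 and Map3k8 had no entry. The letters GTGGGAA (RBPJ, the DNA-binding partner of Notch), TTCNNNGAA (STAT), CAGCTG (E protein), TGTGGT (RUNX) and GTAAACA (FOXO) were searched on both strands. In the 32851 windows of 300 bases in the table, 6.383%, 8.298%, 16.3%, 16.76% and 3.65% held these motifs in that order. Each of the first 4 was found in 1 member and the FOXO letters in none. Rasgrp1 held the STAT letters at position -120 from its start site and Clec12a the RUNX letters at -155, but more than 30 of the 250 bases before the start site lie in GENCODE M21 exons in both (124 and 250), and these are not printed. For the 2 others with a motif, the 250 bases before the start site are printed 5′ to 3′ on the gene's own strand with the motif in capitals. Stk17b lies at chr1:53785216-53785465 on the minus strand with its RBPJ letters starting at position -244, and Arap2 at chr5:62766178-62766427 on the minus strand with E protein letters at -171.
Stk17b: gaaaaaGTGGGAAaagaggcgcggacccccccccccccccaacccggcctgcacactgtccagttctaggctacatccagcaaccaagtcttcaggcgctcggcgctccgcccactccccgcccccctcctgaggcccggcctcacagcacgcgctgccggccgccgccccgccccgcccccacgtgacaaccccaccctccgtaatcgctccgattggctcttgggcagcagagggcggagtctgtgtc
Arap2: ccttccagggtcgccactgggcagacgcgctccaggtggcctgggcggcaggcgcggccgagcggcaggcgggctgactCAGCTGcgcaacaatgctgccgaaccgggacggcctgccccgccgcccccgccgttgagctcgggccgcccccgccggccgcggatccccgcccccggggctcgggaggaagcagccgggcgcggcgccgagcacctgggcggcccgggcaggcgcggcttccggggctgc
No motif was present in more than 1 of the 8 windows, so the genes do not share these letters near their start sites. A match describes the sequence only.

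Library totals were 9456818 to 23962395 counts in the pI-pC and antibody table, 48127197 to 91659598 in the tamoxifen DN3 table and 17418638 to 30975324 in the tamoxifen ETP table, and levels are given as CPM, the count scaled to library size and TMM factors within a comparison. Zmiz1 was lower in every deleted library than in any of its controls, with log2 fold changes of -1.41 in DN3 and -1.41 in ETP after pI-pC, and -0.66 in DN3 and -1.13 in ETP after tamoxifen. Dtx1, a direct Notch target, was lower in every AntiNRR library than in any IgG library (-3.94 in DN3 and -3.01 in ETP). After deletion it went the other way. Its log2 fold change was 1.13 in DN3 (edgeR adjusted p = 0.00115) and 3.18 in ETP (edgeR adjusted p = 0.0185) after pI-pC. After tamoxifen it was 0.23 in DN3 (edgeR adjusted p = 0.336), with overlapping groups, and 0.72 in ETP (edgeR adjusted p = 0.907), without overlap. The labels give both stages as positive for CD44 and negative for CD25, so the stages were checked on markers. Cd44 lay between 0.542 and 6.99 CPM in the DN3 libraries and between 48.0 and 312 CPM in the ETP libraries of the 3 tables. Ptcra, which encodes the chain that pairs with newly made T-cell receptor beta, lay between 343 and 404 CPM in tamoxifen DN3 and between 2.50 and 21.6 CPM in tamoxifen ETP. In the other table it lay between 58.6 and 233 CPM in DN3, lowest with AntiNRR, and between 1.14 and 59.3 CPM in ETP, highest in DeltaMxCre. Il2ra, which encodes CD25, did not separate the stages over the arms of that table. It lay between 2293 and 4216 CPM in MxCre DN3, 1537 and 2108 CPM in MxCre ETP, and 4208 and 4644 CPM in DeltaMxCre ETP. In the antibody experiment it was at 3275 to 3893 CPM in IgG DN3, 557 to 869 CPM in AntiNRR DN3 and 1872 to 2604 CPM in IgG ETP. The 3 tables come from different library kits and were not tested against each other.

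All 10 genes passed the filter on low counts in each of the 6 comparisons. In DN3 cells they were higher after both treatments, by log2 fold changes of 0.59 to 1.82 (median 0.76) after pI-pC deletion and of 0.40 to 1.31 (median 0.71) after the antibody, against a median of -0.01 over all genes in each. The rule fixed this: all 10 were past an edgeR adjusted p of 0.05 (Benjamini-Hochberg) in both contrasts, where 0.986% of the genes tested after pI-pC and 2.65% after the antibody were called higher. For all 10, the groups did not overlap in either contrast, as for 11.1% and 10.9% of genes in the upward direction. Only 19 of 12275 genes tested in both (0.155%) were called higher in both.

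**Figure D1:**
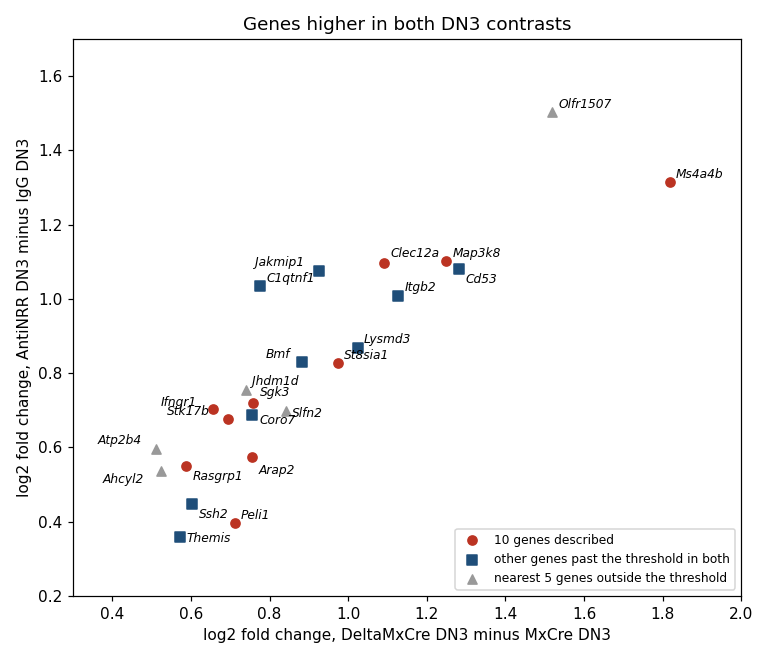
Log2 fold change after pI-pC deletion (x axis) against that after the antibody (y axis) in DN3 for the 10 genes (circles), the 9 other genes past the threshold in both (squares) and the 5 nearest genes outside it (triangles). Ms4a4b lies farthest out among the 10 at 1.82 and 1.31, and Rasgrp1, Themis, Ssh2 and Peli1 lie near the lower left.

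Among the surface proteins, Ms4a4b had the largest difference of the 10 in both contrasts and Ifngr1 a smaller difference on a far higher level. Ms4a4b, a membrane protein of the MS4A family described in T cells, stood at 4.68, 9.20 and 3.32 CPM in the MxCre DN3 libraries and at 18, 19.8 and 22.7 CPM in the DeltaMxCre DN3 libraries (log2 fold change 1.82, SE 0.355). It stood at 11.5, 5.38 and 10.4 CPM with IgG and at 19.4, 16.4 and 32 CPM with AntiNRR (log2 fold change 1.31, SE 0.353). Its control levels were the lowest among the 10, and the deleted libraries sat closer together than the antibody-treated ones. Clec12a, an inhibitory C-type lectin receptor best known on myeloid cells, went from 36.6, 38.3 and 23.4 CPM in MxCre DN3 to 69.7, 68.1 and 71.8 CPM in DeltaMxCre DN3 (log2 fold change 1.09, SE 0.193). With IgG it was at 39.2, 40.8 and 44.2 CPM and with AntiNRR at 98.8, 83.7 and 83.1 CPM (log2 fold change 1.10, SE 0.16), so its level was about double its control level in both. Myeloid markers stayed low in these libraries: the summed level of 11 markers found was 17.0 to 34.4 CPM over the 12 DN3 libraries, with Elane and Fcgr3 at 0. Ifngr1, the ligand-binding chain of the interferon-gamma receptor, read 399, 331 and 445 CPM in MxCre DN3 and 564, 578 and 709 CPM in DeltaMxCre DN3 (log2 fold change 0.66, SE 0.142). With IgG it read 395, 409 and 448 CPM and with AntiNRR 712, 756 and 571 CPM (log2 fold change 0.70, SE 0.104). Per kilobase of annotated exon it was the most abundant of the 10 in every group.

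Among the signalling proteins, Map3k8 had the largest difference. This kinase, also called Tpl2, activates the MEK and ERK kinases downstream of innate immune receptors. It was at 10.3, 6.81 and 10.8 CPM in MxCre DN3 and at 19.5, 24.1 and 22.7 CPM in DeltaMxCre DN3 (log2 fold change 1.25, SE 0.275). With IgG it was at 15.4, 16.1 and 15.4 CPM and with AntiNRR at 48.8, 23.3 and 28.5 CPM (log2 fold change 1.10, SE 0.277), AntiNRR replicate 1 being well above the others. Rasgrp1, which activates Ras in response to diacylglycerol below the T-cell receptor, had the smallest difference after deletion: 196, 167 and 237 CPM in MxCre DN3 and 295, 311 and 297 CPM in DeltaMxCre DN3 (log2 fold change 0.59, SE 0.139). Its levels were 198, 231 and 199.9 CPM with IgG and 314, 278 and 327 CPM with AntiNRR (log2 fold change 0.55, SE 0.105). Peli1, an E3 ubiquitin ligase of Toll-like receptor signalling that also restrains T-cell activation, had the smallest difference after the antibody. It was at 146, 175 and 157 CPM with IgG and at 211, 224 and 194 CPM with AntiNRR (log2 fold change 0.40, SE 0.111). After deletion it was at 174, 206 and 188 CPM against 100.0, 123 and 124 CPM in MxCre DN3 (log2 fold change 0.71, SE 0.136).

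Stk17b and Sgk3 are serine/threonine kinases, the first (DRAK2) a negative regulator of T-cell receptor signalling and the second a relative of Akt recruited to endosomes by phosphoinositides. Stk17b read 65.9, 77.2 and 67.3 CPM in MxCre DN3 and 103, 124 and 113 CPM in DeltaMxCre DN3 (log2 fold change 0.70, SE 0.143). With IgG it read 80.1, 72.4 and 77.3 CPM and with AntiNRR 145, 106 and 115 CPM (log2 fold change 0.68, SE 0.14), so its controls spanned a narrow range in both experiments. Sgk3 read 104, 66.2 and 69.1 CPM in MxCre DN3, where replicate 1 stood apart, and 129, 139 and 136 CPM in DeltaMxCre DN3 (log2 fold change 0.76, SE 0.168). With IgG it read 112, 107 and 131 CPM and with AntiNRR 202, 189 and 184 CPM (log2 fold change 0.72, SE 0.115).

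The remaining pair act on membranes and the cytoskeleton. St8sia1, the sialyltransferase that makes ganglioside GD3, was at 106, 96.5 and 76.1 CPM in MxCre DN3 and at 179, 180.4 and 188 CPM in DeltaMxCre DN3 (log2 fold change 0.97, SE 0.143). With IgG it was at 167, 146 and 163 CPM and with AntiNRR at 288, 293 and 262 CPM (log2 fold change 0.83, SE 0.105). Its treated libraries sat within a narrow range in both, and of the 10 it was the farthest inside the threshold. A gene model on the other strand, Gm7457, overlaps St8sia1, and whether counting used strand is not given in the sources used here, so their reads cannot be told apart. Arap2, a GTPase-activating protein for Arf proteins that binds phosphoinositides, was at 79.3, 92.4 and 131 CPM in MxCre DN3 and at 158, 172 and 181 CPM in DeltaMxCre DN3 (log2 fold change 0.76, SE 0.167). With IgG it was at 78.7, 71.2 and 83 CPM and with AntiNRR at 123, 108 and 116 CPM (log2 fold change 0.57, SE 0.133). How reads shared by Ms4a4b and its close relatives in the MS4A cluster were assigned is likewise not given.

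**Figure D2:**
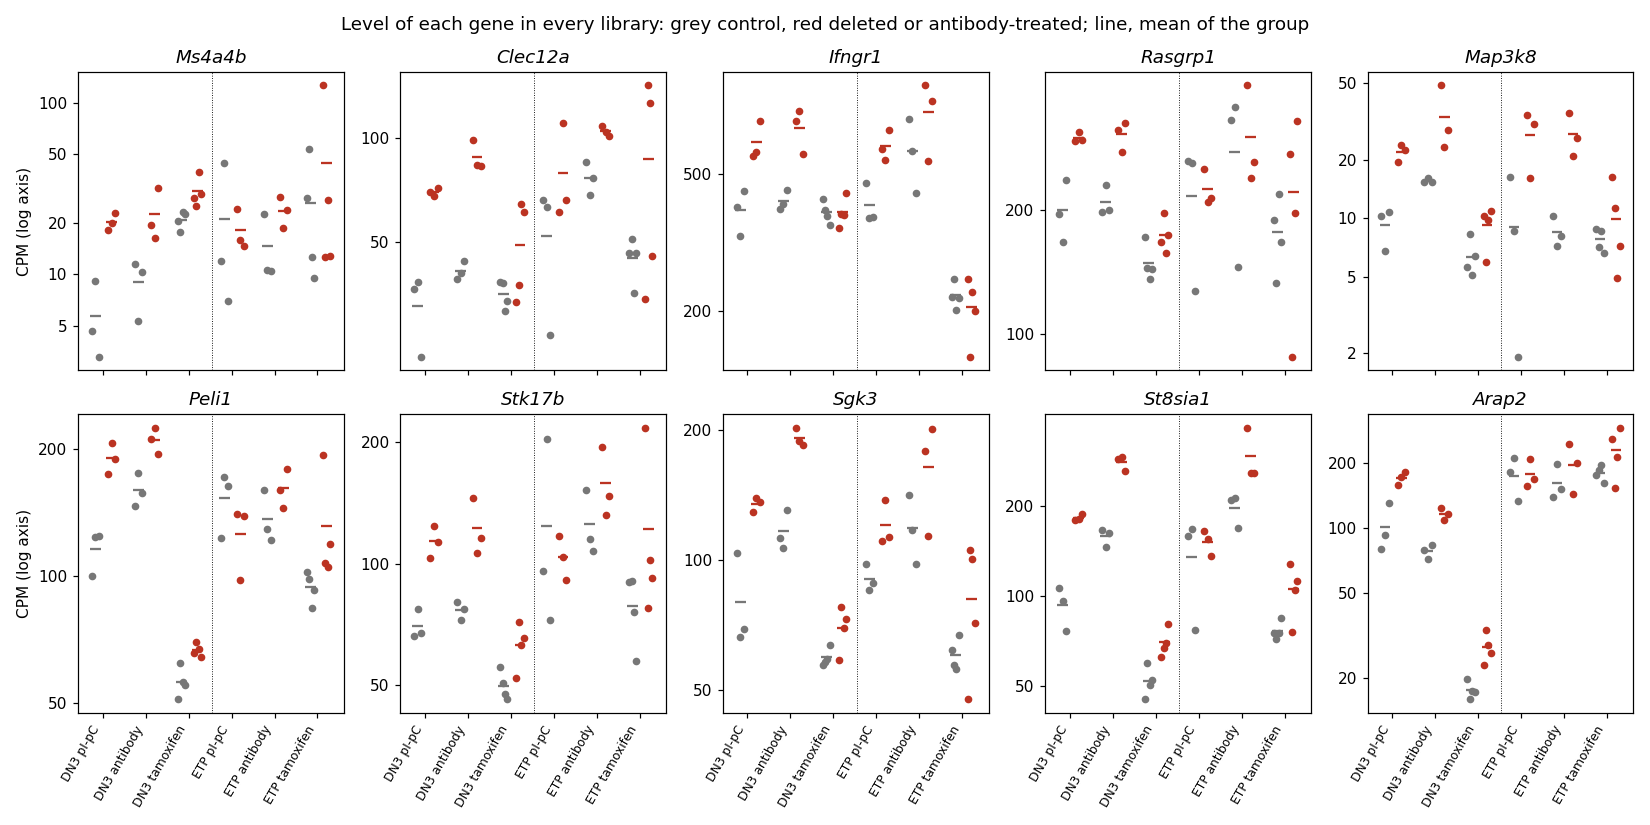
CPM on a log axis in each library of the 6 comparisons for the 10 genes, controls in grey and deleted or antibody-treated libraries in red, with the group mean as a line; DN3 lies left of the dotted line and ETP right of it. The DN3 pI-pC and antibody groups separate for every gene, the tamoxifen DN3 groups for 4, and single ETP libraries such as DeltaTamCre replicate 1 for Ms4a4b (126 CPM) stand far from their group. CPM are scaled within each comparison, so heights are not compared between tables.

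How firmly the pI-pC contrast placed the genes past its threshold varied with single libraries. Without DeltaMxCre DN3 replicates 1, 2 and 3 in turn, 6, 1 and 0 of the 10 were past it, and without MxCre DN3 replicates 1, 2 and 3, the numbers were 3, 5 and 10. In the antibody contrast, leaving out AntiNRR replicates 1, 2 and 3 left 8, 9 and 9, and leaving out IgG replicates 1, 2 and 3 left 8, 6 and 7. All 10 stayed above 0 in each of these 12 fits. Just inside the threshold, Rasgrp1 had an edgeR adjusted p of 0.0469 in its weaker contrast, and just outside it Atp2b4, Jhdm1d and Slfn2 had 0.0519, Ahcyl2 0.0527 and Olfr1507 0.0533.

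Other measures moved with the same groups. In DN3, the reads on Malat1, a nuclear RNA, made up 0.324 to 0.711% of counts in the MxCre libraries and 0.961 to 1.33% in the DeltaMxCre libraries, and those on ribosomal Rn45s 6.76 to 8.82% and 4.71 to 5.07%. Rn45s took 2.75 to 3.74% with IgG and 4.77 to 6.80% with AntiNRR in DN3. Summed markers of double-positive thymocytes (9 of 10 found, Themis included) were 1369 to 1661 CPM in MxCre DN3 and 1883 to 2465 CPM in DeltaMxCre DN3. They were 2440.1 to 2951 CPM with IgG and 2998 to 3287 CPM with AntiNRR, so the sum was higher in both contrasts that chose the genes. The coreceptors were a small part of it. Cd8a averaged 7.02 CPM in MxCre DN3, 7.10 CPM in DeltaMxCre DN3, 7.29 CPM with IgG and 6.48 CPM with AntiNRR. Cd4 averaged 4.97, 3.62, 7.72 and 11.6 CPM in the same order. Themis was itself called higher in both contrasts. After the antibody, DN3-stage markers summed to 6418 to 7459 CPM against 12311 to 12588 CPM with IgG. Of these sums, Il2ra alone was 557 to 869 CPM against 3275 to 3893 CPM, and the list also holds Dtx1. Dendritic markers summed to 645 to 753 CPM against 237 to 280.2 CPM. That list shares Ccr9 with the double-positive list and Flt3 with the ETP-stage list. Its integrin Itgax stood at 0.173 to 1.15 CPM against 0.427 to 1.21 CPM. Natural killer and innate lymphoid markers summed to 248 to 278 CPM against 131 to 165 CPM. Gamma-delta T-cell markers (5 of 9 found) summed to 142 to 144 CPM against 75.8 to 91.4 CPM, and ETP-stage markers to 199 to 245 CPM against 140.02 to 163 CPM. Kit alone made up most of the ETP-stage sum, at 161 to 221 CPM against 97.1 to 116 CPM. Cd44 stood at 2.24 to 3.95 CPM against 2.45 to 2.92 CPM, and Cd34, Lyl1 and Lmo2 were at 0 with AntiNRR. Batf3 was at 0 among the dendritic markers and Ncr1, Klrd1, Klrk1 and Gzmb at 0 among the killer markers in both antibody groups. Gzma alone stood at 219 to 245 CPM with AntiNRR and at 114 to 139 CPM with IgG, so it made up most of the killer sum. The part of these shifts in the values of the 10 genes was not tested.

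The tamoxifen DN3 libraries, sorted within 2 days of deletion, are the nearest independent comparison. All 10 genes had a log2 fold change above 0, as 52.2% of all genes did, with a median of 0.38 against 0.01 over all 13298 genes tested. None was called by edgeR after Benjamini-Hochberg adjustment (0 of 10, where 0.0827% of genes were called), 9 had an unadjusted p under 0.05 in the upward direction (7.29% of genes did), and DESeq2 called 3, where it called 3.44% of genes. Arap2 came closest: 19.95, 16, 17.4 and 17.2 CPM in TamCre DN3 and 23.1, 33.7, 28.6 and 26.3 CPM in DeltaTamCre DN3 (log2 fold change 0.66, SE 0.122, edgeR adjusted p = 0.0891). Every deleted library lay above every control. The groups were also separate for Ms4a4b, Peli1 and St8sia1, making 4 of 10, against 4.38% of all genes in that direction.

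Ms4a4b read 20.4, 17.6, 23 and 22.5 CPM in TamCre DN3 and 27.8, 25.2, 39.6 and 29.5 CPM in DeltaTamCre DN3 (log2 fold change 0.55, SE 0.142, edgeR adjusted p = 0.135). St8sia1 read 45.1, 59.6, 50.4 and 52.4 CPM and 62.4, 67.1, 69.4 and 80.5 CPM in the same order (log2 fold change 0.43, SE 0.0994, edgeR adjusted p = 0.126). Peli1 read 51.1, 62.4, 56.1 and 55.3 CPM and 65.6, 69.7, 66.9 and 64.2 CPM (log2 fold change 0.24, SE 0.0725, edgeR adjusted p = 0.171). In each of the 3, the lowest deleted library lay above the highest control. DESeq2 gave adjusted p = 0.000283 for Arap2, 0.011 for St8sia1 and 0.0165 for Ms4a4b. With the double-positive markers as a covariate edgeR called Arap2 as well (log2 fold change 0.85, adjusted p = 0.0154), where it called 13 of all 13298 genes. Stk17b (log2 fold change 0.33, SE 0.0986), Map3k8 (log2 fold change 0.54, SE 0.208), Sgk3 (log2 fold change 0.23, SE 0.0867) and Rasgrp1 (log2 fold change 0.22, SE 0.092) were higher on average with overlapping groups, at edgeR adjusted p between 0.171 and 0.281.

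For Clec12a the deleted libraries were split, and for Ifngr1 the means were nearly equal. Clec12a was at 38.5, 38.1, 31.6 and 33.8 CPM in TamCre DN3 and at 33.5, 37.6, 64.4 and 61.4 CPM in DeltaTamCre DN3, so that deleted libraries 3 and 4 were high and deleted libraries 1 and 2 lay among the controls (log2 fold change 0.47, SE 0.203, edgeR adjusted p = 0.305). Cd8a, a coreceptor of later thymocytes, stood at 45, 9.08, 16.5 and 25.5 CPM in the same 4 deleted libraries and at 7.05, 26.6, 8.44 and 8.02 CPM in the controls. Its part was not tested on its own. With the double-positive markers, Cd8a among them, as a covariate, Clec12a was still not called and its value stayed above 0. Summed double-positive markers were 1054 to 1210.3 CPM in DeltaTamCre DN3 and 936 to 1098 CPM in TamCre DN3, and killer and innate lymphoid markers 241 to 269 CPM and 306 to 326 CPM. Of the killer sum, Gzma alone was 123 to 174 CPM in DeltaTamCre DN3 and 214 to 241 CPM in TamCre DN3. Ifngr1 showed no difference in the mean, at 421, 392, 376 and 356 CPM in TamCre DN3 and 348, 382, 381 and 438 CPM in DeltaTamCre DN3 (log2 fold change 0.00, SE 0.0878, edgeR adjusted p = 0.988). The range of 2 SE on each side, -0.17 to 0.18, did not reach the 0.66 measured after pI-pC, a value that the rule used to choose the gene. The 2 deletions also differ in kit, agent and time and were not tested against each other.

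**Figure D3:**
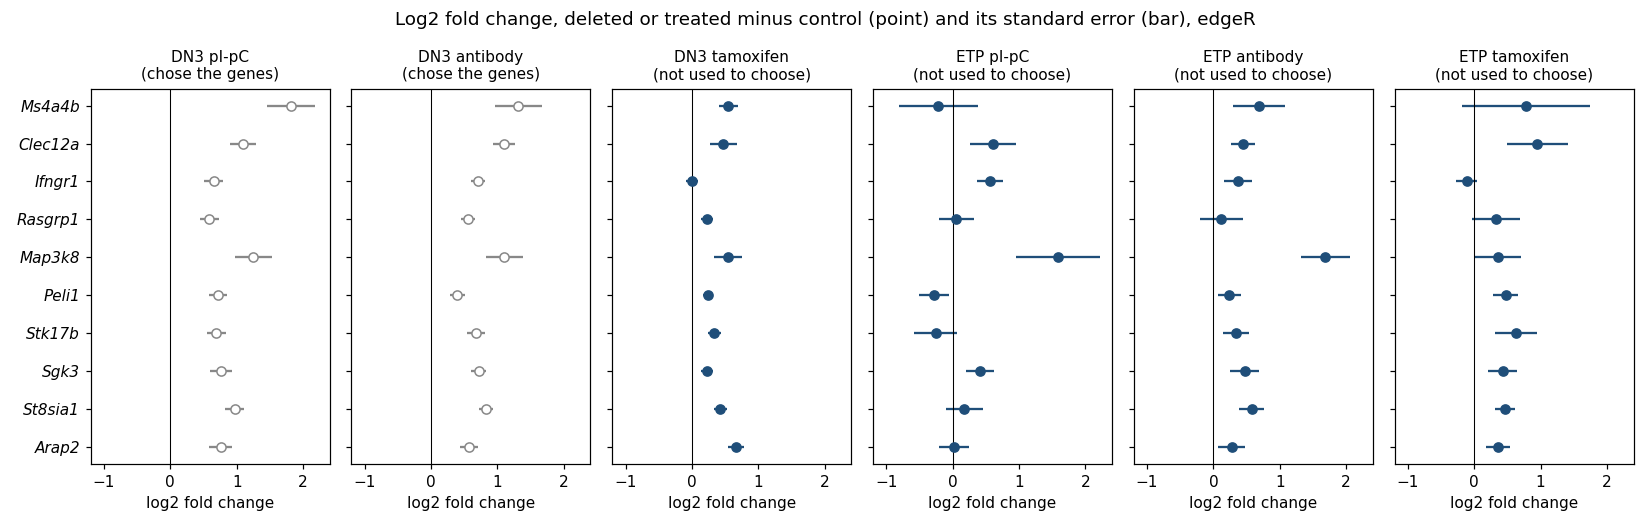
Log2 fold change (x axis, point) with its standard error (bar) for the 10 genes in the 6 comparisons, open grey points for the contrasts that chose the genes and filled blue points for the others. All 10 DN3 tamoxifen values lie at or right of 0, and in ETP the values run from -0.28 for Peli1 after pI-pC to 1.68 for Map3k8 after the antibody.

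In ETP after pI-pC deletion the picture was mixed. edgeR called 0 of the 10 genes (0.0416% of the 12010 tested were called), and DESeq2 called 0 as well (0.716% of genes). Of the 10, 7 were above 0 and 3 below, where 47.5% of all genes were above 0. The median log2 fold change of the 10 was 0.12, against -0.03 over all genes. The 2 with an unadjusted p under 0.05, both upward (2.71% of genes were), were Ifngr1 and Map3k8. Ifngr1 read 471, 372 and 375 CPM in MxCre ETP and 589, 547 and 668 CPM in DeltaMxCre ETP, without overlap (log2 fold change 0.57, SE 0.192, edgeR adjusted p = 0.689). Map3k8 read 16.5, 8.57 and 1.92 CPM and 34.2, 16.3 and 30.6 CPM (log2 fold change 1.59, SE 0.635, edgeR adjusted p = 0.822), with a wide spread among both groups. Sgk3 was the other gene without overlap, at 97.6, 85.2 and 88.3 CPM in MxCre ETP and 110.5, 138 and 113 CPM in DeltaMxCre ETP (log2 fold change 0.41, SE 0.216, edgeR adjusted p = 0.931), 2 of 10 against 6.16% of all genes in that direction.

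Ms4a4b and Stk17b, both clearly higher in DN3, had negative values in ETP that turned positive without 1 control library. Ms4a4b stood at 12, 44.3 and 6.95 CPM in MxCre ETP and at 24, 15.8 and 14.6 CPM in DeltaMxCre ETP (log2 fold change -0.22, SE 0.594, edgeR adjusted p = 0.996). Stk17b stood at 95.6, 204 and 72.5 CPM and 117, 104 and 91 CPM (log2 fold change -0.25, SE 0.325, edgeR adjusted p = 0.996). MxCre ETP replicate 2 was the highest library for both, and its summed killer and innate lymphoid markers were 449.7 CPM against 195 and 198 CPM in the other MxCre libraries and 105 to 145 CPM in DeltaMxCre ETP. Without it the log2 fold changes were 0.94 for Ms4a4b and 0.31 for Stk17b. With those markers as a covariate, a fit chosen after seeing the data, they were 0.84 and 0.28. Peli1 was at 123, 171 and 163 CPM in MxCre ETP and 140.3, 97.6 and 139 CPM in DeltaMxCre ETP (log2 fold change -0.28, SE 0.23, edgeR adjusted p = 0.996) and stayed below 0 whichever library was left out (-0.42 to -0.13).

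Clec12a was at 66.3, 63.1 and 27 CPM in MxCre ETP and at 61.2, 111 and 66.1 CPM in DeltaMxCre ETP (log2 fold change 0.61, SE 0.349, edgeR adjusted p = 0.96), with MxCre replicate 3 far below the rest. Summed myeloid markers went the other way, at 78.9 to 195 CPM in MxCre ETP and 46.3 to 76.5 CPM in DeltaMxCre ETP. Most of that difference was Mpo, at 39.4 to 159 CPM and 13.6 to 44.3 CPM in this order. Lyz2 did not fall (12.3 to 21.1 CPM and 16.3 to 23.1 CPM), while Csf1r and Fcgr3 were lower on average. MxCre replicate 3 was also the lowest control for Map3k8, Rasgrp1 and St8sia1, and Malat1 took 0.0777% of its counts against 0.422 and 0.484% in the other MxCre ETP libraries. Rasgrp1, St8sia1 and Arap2 had log2 fold changes of 0.05, 0.18 and 0.03, and without MxCre replicate 3 these were -0.22, -0.10 and -0.13. DN3-stage markers summed to 2899 to 3826 CPM in MxCre ETP and 6663 to 7474 CPM in DeltaMxCre ETP, and ETP-stage markers to 700.5 to 974 CPM and 342 to 455 CPM. Il2ra, which did not separate the stages in this table, made up 1537 to 2108 CPM and 4208 to 4644 CPM of the DN3-stage sums. The list also holds the Notch target Dtx1. Rag1 was higher as well (102 to 361 CPM and 527 to 704 CPM), as was Ptcra (1.37 to 6.42 CPM and 29.3 to 59.3 CPM). The part of these marker differences in the values above was not tested.

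After the antibody, ETP showed the same upward direction as DN3 for all 10 genes, where 51.2% of all genes were above 0. The value was lower than in DN3 for all but Map3k8. The DN3 values chose the genes and were high by that rule, so this does not show a weaker response in ETP. The stages were not tested against each other. The median log2 fold change was 0.41 against 0.01 over all genes. edgeR called 0 of the 10, as it called 0 of the 12568 genes tested (0.0%), though 687 genes had an unadjusted p under 0.05 and DESeq2 called 28 (0.223%). Among the 10, Map3k8, St8sia1, Clec12a and Sgk3 had an unadjusted p under 0.05 upward, where 2.61% of genes did, and for the first 3 the groups did not overlap, as for 5.86% of genes. Map3k8 stood out: 10.3, 7.21 and 8.12 CPM with IgG and 35, 21.1 and 26.2 CPM with AntiNRR, or 8.53 ± 1.57 against 27.4 ± 7.03 (SD, n = 3 each). Its log2 fold change was 1.68 (SE 0.369, edgeR adjusted p = 0.347), and it was the only one of the 10 that DESeq2 called (adjusted p = 0.0177).

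St8sia1 read 209.9, 213 and 169 CPM with IgG and 365, 259 and 257 CPM with AntiNRR in ETP (log2 fold change 0.57, SE 0.184, edgeR adjusted p = 0.71). Clec12a read 85.3, 68.8 and 76.7 CPM and 108, 104 and 101 CPM (log2 fold change 0.44, SE 0.18, edgeR adjusted p = 0.848), the treated libraries lying within 8 CPM of each other. Sgk3 read 141, 117 and 97.9 CPM and 179, 113 and 200.3 CPM (log2 fold change 0.47, SE 0.216, edgeR adjusted p = 0.907), and overlapped. For the other 6 the values ran from 0.12 for Rasgrp1 to 0.69 for Ms4a4b at edgeR adjusted p of 0.952 or more. Rasgrp1 was at 332, 357 and 145 CPM with IgG and 404, 240.4 and 262 CPM with AntiNRR, with IgG replicate 3 well below the other libraries, and without it the value was -0.19. Dendritic markers summed to 150.1 to 287 CPM with IgG and 333 to 546 CPM with AntiNRR in ETP, and DN3-stage markers to 3724 to 5434 CPM and 858 to 2565 CPM. Of the DN3-stage sums, Il2ra alone was 1872 to 2604 CPM and 273 to 1039 CPM. Killer and innate lymphoid markers summed to 138 to 267 CPM with IgG and 182 to 413 CPM with AntiNRR. Of these sums, Gzma alone was 68.2 to 177 CPM and 96.7 to 283 CPM. The part of these 3 lists was tested only for the killer markers. With the killer markers as a covariate, Arap2 (-0.029) and Rasgrp1 (-0.24) were below 0 and the other 8 stayed above it.

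Whether deletion and antibody moved a gene differently in ETP was tested as the difference of the 2 log2 fold changes. edgeR called 0 of the 10 (0.082% of 13408 genes were called), none had an unadjusted p under 0.05 (6.4% of genes did), and DESeq2 called none (0.597% of genes). The differences, deletion minus antibody, ran from -0.88 for Ms4a4b (SE 0.749) to 0.21 for Ifngr1 (SE 0.293). Peli1 had the lowest edgeR adjusted p, at 0.868, with a difference of -0.50 (SE 0.289). For Map3k8, which had the largest value in both, the difference was -0.07 (SE 0.748). The standard errors are of the size of the effects themselves, so the test does not show that the treatments act alike on these genes.

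In ETP after tamoxifen, 9 of the 10 values were above 0, as were 54.4% of all genes, and none was called. The median of the 10 was 0.45, against 0.03 over all genes. edgeR called 0 of 12924 genes (0.0%), with 640 at an unadjusted p under 0.05, and DESeq2 called 2 genes (0.0155%), none of them among the 10. Peli1 and St8sia1 had an unadjusted p under 0.05 upward, as 2.65% of genes did. Peli1 read 102, 98.3, 83.7 and 92.4 CPM in TamCre ETP and 193, 107, 105 and 119 CPM in DeltaTamCre ETP (log2 fold change 0.48, SE 0.187, edgeR adjusted p = 0.907), the only one of the 10 without overlap, where 1.8% of genes were. St8sia1 read 75, 71.6, 74.9 and 84.1 CPM and 128, 76, 105 and 112 CPM (log2 fold change 0.46, SE 0.157, edgeR adjusted p = 0.907), deleted replicate 2 lying among the controls.

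Single libraries stood far from their groups in several of these values. Ms4a4b stood at 27.8, 53.7, 12.6 and 9.56 CPM in TamCre ETP and at 126, 12.6, 27.2 and 12.8 CPM in DeltaTamCre ETP (log2 fold change 0.78, SE 0.964, edgeR adjusted p = 0.924). Stk17b stood at 90.2, 90.7, 75.7 and 57.4 CPM and 217, 77.4, 102 and 91.9 CPM (log2 fold change 0.64, SE 0.315, edgeR adjusted p = 0.907). DeltaTamCre ETP replicate 1 was the highest library for both, with summed killer and innate lymphoid markers of 1121 CPM against 116 to 166 CPM in the other deleted libraries. Il2rb, a receptor chain of killer and innate lymphoid cells, stood at 432 CPM there against 11.6 to 21.2 CPM in the others, and TamCre ETP replicate 2, the highest control for Ms4a4b, had a marker sum of 524 CPM. Without DeltaTamCre replicate 1, Ms4a4b had a value of -0.57 and Map3k8 of 0.00. With the killer markers as a covariate none of the 10 changed sign, and Ms4a4b was at 0.66 and Stk17b at 0.62. Clec12a was at 46.7, 51.2, 35.7 and 46.5 CPM in TamCre ETP and at 34.2, 142, 126 and 45.8 CPM in DeltaTamCre ETP (log2 fold change 0.95, SE 0.455, edgeR adjusted p = 0.907), high in deleted libraries 2 and 3. Ifngr1 was below 0 (log2 fold change -0.11, SE 0.158, edgeR adjusted p = 0.933), and Rasgrp1, Sgk3, Map3k8 and Arap2 lay between 0.33 and 0.43.

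**Figure D4:**
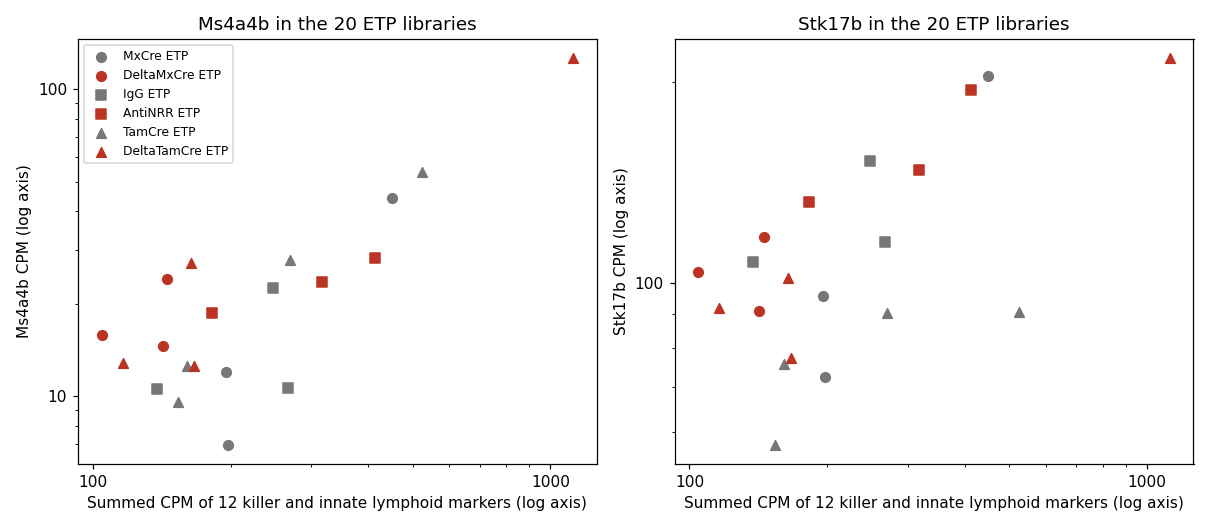
CPM of Ms4a4b (left) and Stk17b (right) against the summed CPM of 12 killer and innate lymphoid markers in the 20 ETP libraries, both axes log, controls in grey and deleted or antibody-treated libraries in red, with a shape for each experiment. The DeltaTamCre library at a marker sum of 1121 CPM has the highest value of both genes among the tamoxifen libraries, and the MxCre library at 449.7 CPM the highest of the MxCre and DeltaMxCre libraries. CPM are scaled within each comparison, so heights are not compared between experiments.

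Levels at the 2 stages were compared within each arm of the pI-pC and antibody table, with its 24 libraries scaled together. The median over the 10 of the ratio of ETP to DN3 mean level was 1.51 in MxCre, 0.99 in DeltaMxCre, 1.43 with IgG and 1.09 with AntiNRR, beside 0.98, 0.97, 1.01 and 1.02 over 14370 genes. These ratios hold the DN3 libraries that chose the genes, so they are a description. Of the 10, 3 were higher in ETP without overlap in MxCre, 0 in DeltaMxCre, 5 with IgG and 2 with AntiNRR, where 9.69%, 12.9%, 15% and 13.8% of genes were. Those higher in DN3 without overlap were 0, 2, 1 and 1 in the same order, where 13%, 17.4%, 15.9% and 14.3% of genes were. Arap2 and Stk17b were higher in ETP than DN3 without overlap in both control arms: Arap2 was at 188 ± 39.3 CPM in ETP and 99.6 ± 26.2 CPM in DN3 of MxCre mice, and at 159.7 ± 30.2 CPM and 72.9 ± 5.43 CPM with IgG (SD, n = 3 each). Peli1 was also higher in ETP of MxCre mice, while Ifngr1, St8sia1 and Clec12a were so with IgG. Map3k8 went the other way with IgG, at 8.42 ± 1.55 CPM in ETP and 14.7 ± 0.413 CPM in DN3 (SD, n = 3 each). In DeltaMxCre the 2 that were higher in DN3 were Peli1 and Rasgrp1. With AntiNRR, Arap2 and Clec12a were higher in ETP and Peli1 in DN3.

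Levels of different genes were compared per kilobase of annotated exon. In MxCre DN3, Ifngr1 had the highest level at 138 ± 20.1 CPM per kb, followed by Rasgrp1 at 35.7 ± 6.32, Peli1 at 17.7 ± 2.08 and Stk17b at 13.5 ± 1.19 (SD, n = 3). St8sia1 at 9.96 ± 1.65, Arap2 at 8.10 ± 2.14, Clec12a at 5.93 ± 1.48 and Sgk3 at 5.56 ± 1.46 CPM per kb came next, neighbours that did not differ beyond their spread. Map3k8 at 2.06 ± 0.479 and Ms4a4b at 0.653 ± 0.351 CPM per kb were lowest. Ifngr1 and Rasgrp1 held the first 2 ranks in all 12 groups, and Map3k8 or Ms4a4b the last.

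Genes of the pathways around the 10 were called only in the 2 DN3 contrasts that chose the 10, nearly all of them after the antibody. Lists of 123 related genes were drawn up around them: the MS4A family, interferon-gamma receptor signalling, Pellino, Tpl2 and NF-kB, Ras and ERK, SGK, Akt and PI3K, ganglioside synthesis, death-associated kinases, regulators of small GTPases, and C-type lectins with their phosphatases. edgeR called 0 of those tested in ETP after pI-pC (98 tested), ETP after the antibody (98), DN3 after tamoxifen (101) or ETP after tamoxifen (103), and 0 of 101 in the ETP difference. Over all genes it called 0.0416%, 0%, 0.0827%, 0% and 0.082% in this order, so these counts of 0 set the lists apart from no other genes. In DN3 after pI-pC, 1 of 93 was called, the lipid phosphatase gene Inpp4b (19.3 ± 2.92 to 39.9 ± 2.19 CPM, SD, n = 3 each, edgeR adjusted p = 0.0204). There, 0.986% of all genes were called higher. In DN3 after the antibody, 11 of 97 rose and 2 fell at an edgeR adjusted p under 0.05, where 2.65% and 2.96% of all genes did.

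Those that rose in the PI3K list included Pik3cd (log2 fold change 0.51), Pik3r1 (0.39) and Foxo3 (0.42), which encode in this order a catalytic and a regulatory subunit of PI3-kinase and a transcription factor below it. The receptor's kinase Jak1 (0.49) and the interferon-induced GTPase Gbp2 (0.60) rose as well. In the list of Peli1 and Map3k8, the inhibitor Nfkbia rose by 1.13, while Nfkb2 fell by 0.65 and Traf3, a signalling adaptor, fell by 0.69. Ms4a6b (0.72), the sialyltransferase St3gal1 (0.50), the kinase Dapk1 (0.38) and the lectin Clec2d (0.51) rose too. The median over the 97 was 0.10, and no list was tested as a set.

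Besides the 10, 9 further genes were called higher in both DN3 contrasts: Bmf, Cd53, Itgb2, C1qtnf1, Coro7, Ssh2, Themis, Lysmd3 and Jakmip1. Their median in tamoxifen DN3 was 0.39 and all 9 were above 0, as were 52.2% of all genes. Of the 9, 8 had an unadjusted p under 0.05 upward, as 7.29% of all genes did. edgeR called Jakmip1 (log2 fold change 0.76, adjusted p = 0.0131) and Cd53, a leukocyte tetraspanin (0.64, adjusted p = 0.0488), where 0.0827% of all genes were called. In ETP their medians were 0.37 after pI-pC, 0.42 after the antibody and 0.35 after tamoxifen, beside 0.12, 0.41 and 0.45 for the 10. In each, 0 were called, where 0.0416%, 0% and 0% of all genes were.

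Over the 24 libraries of the pI-pC and antibody table, centred within stage and experiment, each of the 10 followed the mean of the other 9 with a Pearson r of 0.59 (Peli1) to 0.94 (St8sia1). The 4 genes most like their mean among 9321 candidates were Stk4 (r = 0.89), Cd96 (0.87), Osbpl8 (0.86) and Klf13 (0.85). These libraries include those that chose the genes and share depth and composition differences, so the values only rank likeness. After pI-pC in DN3 none of the 4 was past the edgeR threshold, where Cd96 was nearest (log2 fold change 0.59, adjusted p = 0.0562). After the antibody all 4 were higher in DN3, by 0.48 to 0.77.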

How the data were processed

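RNA-seq of sorted mouse thymocytes was taken from 3 deposited tables of expected counts per gene, which the authors made from their reads, and 0.71 to 1.19% of values were not whole (tolerance 0.01). Per the submitters' processing notes, FastQC 0.10.0, Cuffdiff 2.1.1 with Cufflinks, and Bowtie2 2.1.0.0 beside TopHat2 2.0.9, are named with the mm10 build. How the counts were made is not given in the sources used here. Per the labels' protocols, low-input kits made the pI-pC and antibody libraries and other kits the tamoxifen libraries.

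Expected counts were rounded. Within each comparison, edgeR 4.0.16 in R 4.3.3 kept genes by filterByExpr (10 counts as minimum, 15 in total), applied TMM factors and ran the robust quasi-likelihood test, with Benjamini-Hochberg adjustment over all genes tested and a threshold of 0.05. SE is the log2 fold change over the root of F. All columns mapped to a sample, and replicate libraries differed by more than sampling noise. Alternatives were DESeq2 1.42.0, its size factors, other filters, a replicate block, a shared spread, marker covariates and leaving out each library. The scripts were tested on simulated data. The 10 genes, the related lists and the markers were chosen with earlier results of these data known. Named genes were the 10, Zmiz1 and Dtx1, list genes called in a comparison (at most 6 per list), other genes higher in both DN3 contrasts, and the 5 most like the mean, of which 1 is not reported here. Cd4, Cd8a, Kit, Rag1, Mpo, Lyz2, Csf1r, Fcgr3, Itgax, Il2ra, Il2rb, Gzma, Malat1, Rn45s, Gm7457 and the genes just outside the threshold were named after their values were seen. Promoters are RefSeq's, exon lengths GENCODE M21's.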

Additional observations from a re-analysis of the deposited data

Results flagged for a closer look

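Ms4a4b stood at 126 CPM in DeltaTamCre ETP replicate 1, where the other 3 deleted libraries were at 12.6, 27.2 and 12.8 CPM. Peli1 stood at 193 CPM in the same library against 107, 105 and 119 CPM. Both lay farther from their group than Dixon's criterion allows, 2 of 40 groups of 4 examined, and chance flags about 1 in 20. Peli1 was lower in all 3 DeltaMxCre ETP libraries than the MxCre ETP mean (log2 fold change -0.28) and higher in all 3 DeltaMxCre DN3 libraries (0.71). Stk17b showed the same pattern, at -0.25 in ETP and 0.70 in DN3, and without MxCre ETP replicate 2 its ETP value was 0.31. These opposite directions between stages, 2 of 20 pairs examined, were not tested as a difference.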

How the results depend on the processing

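For the 10 genes in the tested comparisons, 50 fold changes gave 720 values under the alternatives: 677 kept their direction and their side of the threshold, 38 reversed and 5 passed the threshold only in the alternative. In the 2 DN3 contrasts that chose the genes, all 240 values stayed above 0. Of these, 191 were past the threshold and 49 were not, each with a library left out apart from Peli1 after the antibody with the shared spread. The number of the 10 called stayed at 0 in the tested comparisons except under DESeq2 (3 in tamoxifen DN3, 1 in antibody ETP) and with the double-positive markers as a covariate (1 in tamoxifen DN3). That covariate fit called 13 of all 13298 genes. Over all genes, DESeq2 called 527 after pI-pC in DN3 (183 by edgeR), 458 in tamoxifen DN3 (11), 86 after pI-pC in ETP (5), 28 after the antibody in ETP (0), 2 in tamoxifen ETP (0) and 80 in the ETP difference (11). With no filter on low counts edgeR called 347 after pI-pC in DN3, 18 after pI-pC in ETP and 8 after the antibody in ETP, and with a spread shared by the 4 groups 399 after pI-pC in DN3. With the killer markers as a covariate 1 gene was called after pI-pC in ETP. The cause of these changes was not tested.

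The replicate numbers were not taken as pairs. Same-numbered libraries deviated together with r over 0.1 in every pair in none of the 6 comparisons, and own numbers were not always the best match. In tamoxifen ETP r ran from 0.041 to 0.16, so this check does not settle pairing there. Whether ETP and DN3 libraries came from the same mice was not examined. With a replicate block, 14 genes were called after pI-pC in ETP and 0 in tamoxifen DN3, Ms4a4b after pI-pC in ETP turned to 0.23 and Map3k8 in the ETP difference to 0.088. With the killer markers as a covariate, chosen after seeing the data, Ms4a4b (0.84) and Stk17b (0.28) after pI-pC in ETP and Rasgrp1 (-0.24) and Arap2 (-0.029) after the antibody in ETP reversed.

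Leaving out each library in turn gave 12 to 403 genes called after pI-pC in DN3, 351 to 677 after the antibody in DN3, 0 to 17 after pI-pC in ETP, 0 to 5 after the antibody in ETP, 0 to 8 in tamoxifen DN3, 0 to 1 in tamoxifen ETP and 5 to 26 in the ETP difference. Log2 fold changes that changed sign ranged as follows. After pI-pC in ETP: Ms4a4b -0.63 to 0.94, Stk17b -0.52 to 0.31, Rasgrp1 -0.22 to 0.22, St8sia1 -0.10 to 0.37 and Arap2 -0.13 to 0.18. After the antibody in ETP, Rasgrp1 ranged from -0.19 to 0.34. In tamoxifen DN3, Ifngr1 ranged from -0.062 to 0.051. In tamoxifen ETP: Ms4a4b -0.57 to 1.42, Map3k8 -0.0036 to 0.58 and Ifngr1 -0.22 to 0.014. In the ETP difference: Ms4a4b -1.34 to 0.26, Map3k8 -0.55 to 0.71, Rasgrp1 -0.32 to 0.26, Sgk3 -0.24 to 0.12 and Clec12a -0.15 to 0.39. With 3 or 4 libraries a group, standard errors of the 10 in ETP reached 0.964 (Ms4a4b after tamoxifen), so differences of the size seen in DN3 could go undetected there.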

Other observations

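Among the DeltaTamCre ETP libraries the genes did not move together. Clec12a and Sgk3 were high in replicates 2 and 3 (142 and 126 CPM, 105 and 100.5 CPM) and low in replicates 1 and 4 (34.2 and 45.8 CPM, 47.5 and 71.3 CPM). Rasgrp1 and Arap2 were instead high in replicates 1 and 4 (274 and 330.1 CPM, 259 and 289 CPM) and lower in replicates 2 and 3 (87.9 and 197 CPM, 152 and 213 CPM). Zmiz1 itself stood at 174, 120.3, 307 and 202 CPM in replicates 1 to 4, and Cd8a at 18.3, 16.9, 131 and 342 CPM. No comparison was made between these libraries.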
